A study of Mus musculus with 9 samples.

Results

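The kynurenine pathway turns tryptophan into NAD, and its transcripts were followed here in the livers of 9 male Wistar rats. The genes are Tdo2, Ido2, Afmid, Kmo, Kynu, Haao, Acmsd, Qprt and Aadat, with Nampt of the salvage route to NAD. They were found by symbol in the count table, which matched 10 of 10 among 19686 genes. As a set they were chosen by their place in the pathway and on the level of Kynu under fructose, which was known to be higher. All 10 passed the filter on low counts in every comparison.

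The control group (3 rats) drank purified water and received saline by gavage. The model group (3 rats) drank 15% fructose and received saline by gavage. The third group (3 rats, labelled DSS) drank 15% fructose and received a 50% methanol extract of Danggui-Shaoyao-San at 1.8 g/kg by gavage. Danggui-Shaoyao-San (DSS) is a herbal formula, and the extract is called HME, so this group is the HME group below. Treatment lasted 8 weeks in each group, the rats were fasted for 12 h before death under chloral hydrate, and their age is not given in the sources used here. The labels name the mouse as organism but the Wistar rat as strain, and the table uses rat gene identifiers. Samples are numbered within each group, and each is taken here as a single rat. No group received the extract without fructose, so the HME group carries both treatments. Nothing in the labels says when in the day the livers were taken.

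Levels are CPM, the rate of counts in a library after TMM normalization of its total, given as mean ± SD over 3 rats, and fold changes are log2 values of the fitted means with their standard error. Total counts ranged from 14345819 to 26837227 per library. On the second principal component of all genes, with 23.0% of the variance, model replicate 1 lay at -59.1 and the other 8 rats between -16.2 and 20.4, so fold changes of the pathway genes without that rat are given where they moved by over 1.5 times. The hepatocyte markers Alb, Ttr, Apoa1, Serpina1, Tf and Cyp2e1 were abundant. They summed to between 131000 and 170000 CPM in control rats, 170000 and 217000 in model rats and 166000 and 209000 in HME rats. Against control, 5 of the 6 were at higher and 1 at lower values in the model group, and 6 were at higher values in the HME group. The 7 Kupffer cell and macrophage markers summed to between 288 and 658 CPM in control rats, 207 and 468 in model rats and 286 and 391 in HME rats. Markers of leukocytes (5 of 7 found) summed to between 8.61 and 21.3 CPM over all rats, of bile ducts (4 of 4) to between 13.5 and 27.7, of stellate cells (6 of 6) to between 63 and 85, of endothelium (4 of 5) to between 80.9 and 241 and of red blood cells (3 of 4) to between 114 and 539. At 0 in a whole group were 1 leukocyte marker in the model rats and 1 bile duct marker in the HME rats. In bulk liver, fewer cells of a type and less RNA per cell cannot be told apart.

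In liver, most tryptophan that is not used for protein is broken down along this route. A dioxygenase opens the indole ring, a formamidase frees kynurenine, and hydroxylation and cleavage give an anthranilate that is opened to the unstable semialdehyde ACMS. ACMS either closes by itself to quinolinate, the precursor of NAD, or is decarboxylated and burned through the glutarate branch. A separate salvage route rebuilds NAD from nicotinamide.

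Across the pathway, Kynu was higher in both fructose-drinking groups than in the control group, while Afmid and Nampt were lower in both. Ido2 and Kmo were lowest in the model group and lay at the control level in the HME group. Tdo2, Aadat and Qprt overlapped between all pairs of groups. The threshold for a call was an FDR no higher than 0.01 together with a log2 fold change of 0.5 or more in size. By edgeR, 0 of 10 members passed the test between the HME and model groups, beside 0.136% of all genes. Between the HME and control groups 0 of 9 passed, beside 1.48%, since Kynu was not tested there. DESeq2 called Afmid, Acmsd and Nampt in that comparison, beside 6.09% of all genes.

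**Figure D1:**
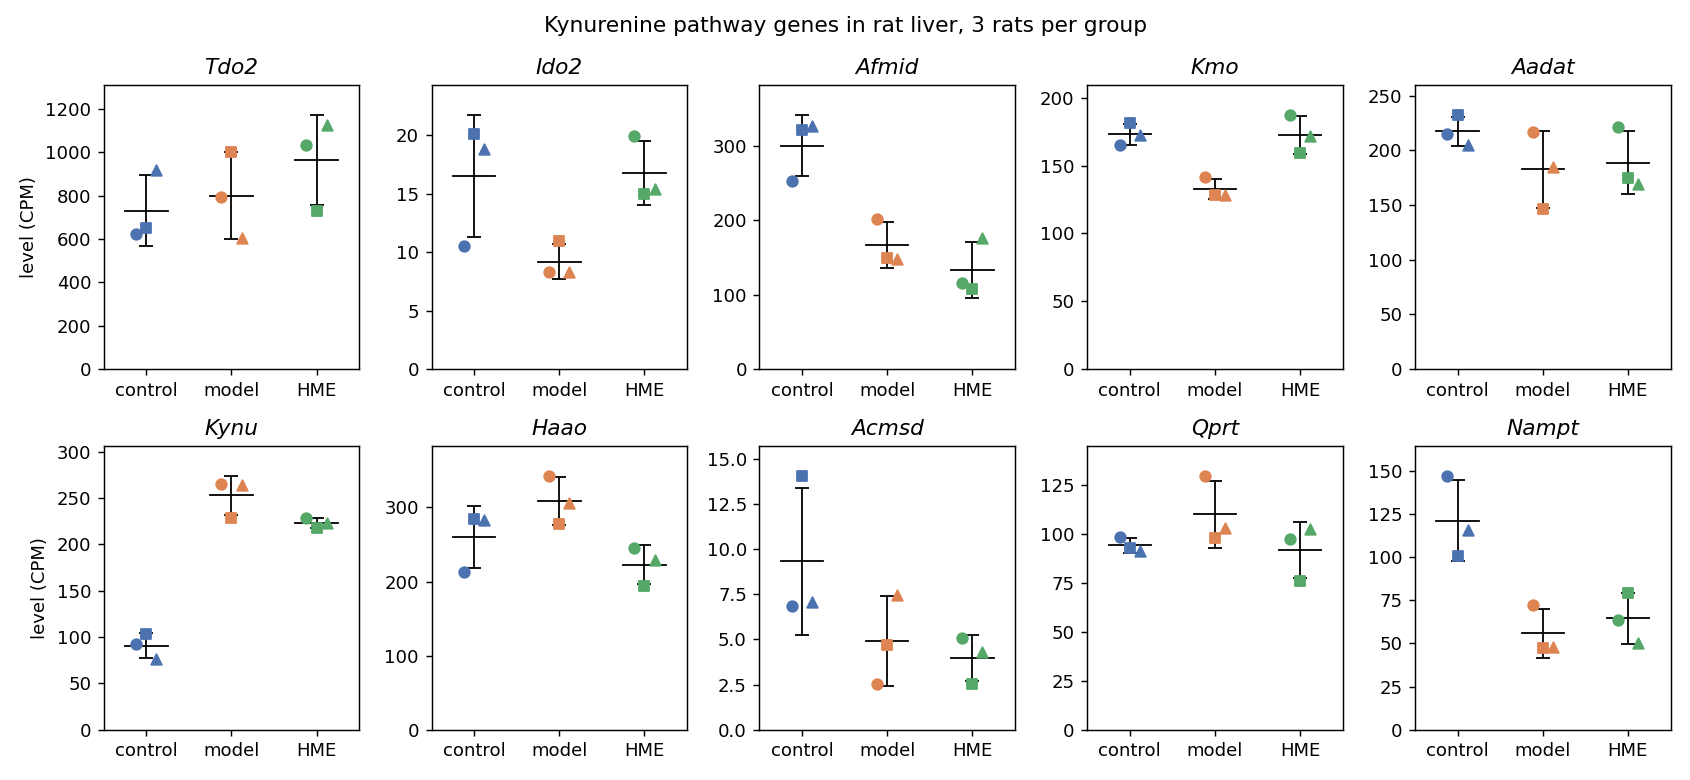
Level of each gene in CPM (vertical axes, from 0) for the control, model and HME groups. Circles, squares and triangles are replicates 1, 2 and 3, horizontal lines are means and bars are SD over 3 rats. Kynu is above the control rats in all 6 fructose-drinking rats, and Nampt and Afmid are below them.

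Kynu (kynureninase, ENSRNOG00000029993) cleaves 3-hydroxykynurenine to 3-hydroxyanthranilate and needs vitamin B6 as cofactor. The control rats were at 92.3, 103 and 76.2 CPM, the model rats at 266, 229 and 264 CPM and the HME rats at 228.8, 217 and 223 CPM. The model and HME rats all lay above the highest control rat, and the HME rats, the closest together, all lay below the lowest model rat by a narrow margin. The group means were 90.6 ± 13.6, 253 ± 20.8 and 223 ± 5.72 CPM. Because this gene was chosen on its level under fructose, its difference from control is a description with no test. That difference was 1.48 (standard error 0.158), or 2.79-fold, in the model group and 1.30 (standard error 0.129), or 2.46-fold, in the HME group. With 1 rat left out at a time these values ranged from 1.38 to 1.59 and from 1.19 to 1.41.

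Between the HME and model groups the log2 fold change of Kynu was -0.18 (standard error 0.13, 95% interval -0.475 to 0.124, FDR 0.828 from edgeR). This comparison shares its 3 model libraries with the one in which Kynu was chosen. Kynu did not pass, and the interval includes both no difference and a lower level in the HME group. Macrophages also express Kynu, and the range of the summed Kupffer cell and macrophage markers in each fructose-drinking group overlapped the control range. Against control, all 7 of these markers were at lower values in the model group, with a median log2 fold change of -0.37. All 7 were also lower in the HME group, with a median of -0.31 and a lowest FDR of 0.148 from edgeR. The part of such cells in the Kynu values was not tested.

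The genes whose pattern over the 9 rats lay closest to Kynu were sought among 10102 genes with a mean count of at least 50. Likeness was the root mean square difference of log2(CPM + 1), centred on each gene's mean. Tymp (thymidine phosphorylase, a nucleoside-degrading enzyme) came first at 0.111, with means of 142 CPM in control, 432 in model and 402 in HME rats. Galt, which acts in galactose breakdown, followed at 0.152, Agpat3, an acyltransferase of phospholipid synthesis, at 0.182, Tcp11l2 at 0.185 and Mreg (melanoregulin) at 0.224. In all 5 genes, as in Kynu, the lowest of the 6 fructose-drinking rats was above the highest control rat. They were picked for this likeness, so it is a description without a test.

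**Figure D2:**
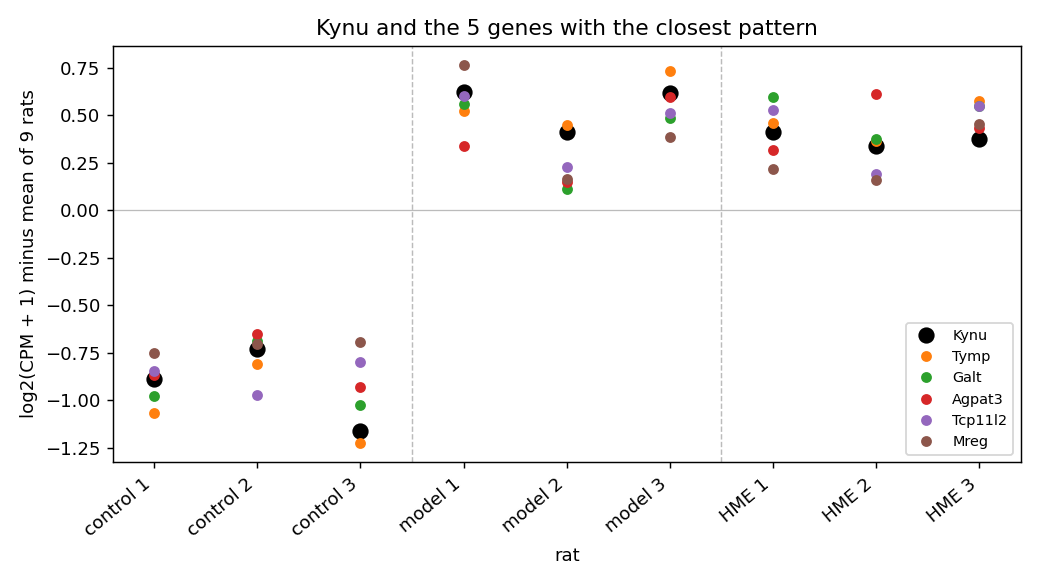
Centred log2(CPM + 1) of Kynu (black) and the 5 genes nearest to it (vertical axis, difference from the gene's own mean over 9 rats) in each rat (horizontal axis, dashed lines part the groups). All 6 genes lie below 0 in the 3 control rats and above 0 in the 6 fructose-drinking rats.

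The first step is taken by tryptophan 2,3-dioxygenase, encoded by Tdo2 (ENSRNOG00000011612), the main tryptophan-degrading enzyme of hepatocytes. Tdo2 was at 621, 651 and 919 CPM in the control rats, 792, 1002 and 602 in the model rats and 1033, 728 and 1125 in the HME rats. The groups overlapped in every comparison. The log2 fold change was 0.13 (standard error 0.23) between the model and control groups, and its sign turned to -0.07 without model replicate 2. It was 0.28 (standard error 0.233, 95% interval -0.259 to 0.812, FDR 0.844 from edgeR) between the HME and model groups and 0.39 (standard error 0.208, 95% interval -0.0777 to 0.865, FDR 0.284) between the HME and control groups.

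Tdo2 is a known target of glucocorticoids, and 6 of 7 genes on the list for that response were found. In the HME group 0 of the 6 passed by edgeR against the model group, beside 0.136% of all genes. Against the control group 0 passed, beside 1.48%. The lowest FDR on that list was 0.761 and 0.0613. Its summed level ranged from 1620 to 1790 CPM in the control rats, 920 to 2860 in the model rats and 1880 to 4520 in the HME rats. Most of that sum in the HME rats came from Pck1, a gluconeogenic enzyme that varied widely between rats. Pck1 was at 812 ± 163 CPM in control, 1502 ± 803 in model and 2791 ± 1324 in HME rats. Tat, a tyrosine aminotransferase, had means of 797, 460 and 582 CPM and Tsc22d3 of 56.1, 23.0 and 26.4 CPM. Against control, 3 of the 6 genes were at higher and 3 at lower values in the HME group, with a median of -0.13. Its part in the Tdo2 values was not tested.

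Ido2 (ENSRNOG00000025365) encodes a related dioxygenase of low activity. Its control rats were at 10.5, 20.1 and 18.9 CPM, its model rats at 8.31, 10.9 and 8.33 CPM and its HME rats at 19.9, 14.96 and 15.4 CPM. Control replicate 1 stood within the range of the model rats, while every HME rat was above every model rat. The log2 fold change was -0.84 (standard error 0.263) in the model group against control.

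Against the model group, Ido2 was 0.88 higher in the HME group on the log2 scale (standard error 0.192, 95% interval 0.435 to 1.32), with an FDR of 0.155 from edgeR and 0.0158 from DESeq2. It missed the threshold with either tool. Against control the HME group differed by 0.03 (standard error 0.246, 95% interval -0.539 to 0.59, FDR 0.966). The related dioxygenase gene Ido1 was not analysed here.

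Afmid (arylformamidase, ENSRNOG00000050205) frees kynurenine from its formyl group. The control rats were at 253, 321 and 327 CPM, the model rats at 202, 150 and 148 CPM and the HME rats at 115, 108 and 176 CPM. All fructose-drinking rats were below all control rats, and the model and HME rats overlapped. In the model group it was -0.85 against control (standard error 0.183), and without model replicate 1 it was -1.03.

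Against control, the log2 fold change of Afmid in the HME group was -1.17 (standard error 0.204), with an FDR of 0.0145 from edgeR, so that it missed 0.01. DESeq2 gave 1.63e-06, and over all settings the edgeR and DESeq2 values reached up to 0.0585. The HME group lay -0.31 from the model group (standard error 0.223, 95% interval -0.827 to 0.197, FDR 0.817 from edgeR), with -0.15 without model replicate 1 and -0.57 without HME replicate 3.

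Kmo (kynurenine 3-monooxygenase, ENSRNOG00000003709) hydroxylates kynurenine at the outer mitochondrial membrane. The control rats were at 165, 181 and 173 CPM, the model rats at 141, 128 and 128 CPM and the HME rats at 187, 159 and 172 CPM. The model rats lay below every rat of either other group, and the control and HME rats overlapped. The log2 fold change was -0.38 (standard error 0.126) in the model group against control. It was 0.39 (standard error 0.13, 95% interval 0.0897 to 0.685, FDR 0.466 from edgeR) in the HME group against model and -0.01 (standard error 0.111, 95% interval -0.256 to 0.242, FDR 0.98) against control.

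Aadat (ENSRNOG00000011861) encodes an aminotransferase that draws kynurenine off to kynurenic acid. The control rats were at 215, 232 and 205 CPM, the model rats at 217, 146 and 185 CPM and the HME rats at 222, 175 and 169 CPM, so the groups overlapped in every comparison. Its log2 fold change was -0.25 (standard error 0.172) in the model group against control, 0.05 (standard error 0.187, FDR 0.966 from edgeR) in the HME group against model and -0.21 (standard error 0.132, FDR 0.369) against control. Without model replicate 1 the first of these was -0.41 and the second 0.20, and the second turned to -0.09 without model replicate 2 or HME replicate 1.

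Haao (ENSRNOG00000031263), whose dioxygenase product is ACMS, was at 212, 285 and 284 CPM in the control rats, 342, 277 and 306 CPM in the model rats and 245, 194 and 229 CPM in the HME rats. Each HME rat was below each model rat, and both groups overlapped the control rats. The log2 fold change in the HME group against model was -0.47 (standard error 0.153, 95% interval -0.816 to -0.115, FDR 0.449 from edgeR), which missed the threshold. Against control it was 0.25 (standard error 0.169), or 0.15 without model replicate 1, in the model group and -0.23 (standard error 0.152, FDR 0.392) in the HME group.

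Qprt (quinolinate phosphoribosyltransferase, ENSRNOG00000016980) commits quinolinate to NAD synthesis. It was at 98.7, 93.1 and 91.3 CPM in the control rats, 130, 97.9 and 103 CPM in the model rats and 97.5, 76.0 and 102 CPM in the HME rats. The groups overlapped in every comparison, and the highest value was that of model replicate 1. The log2 fold change was 0.23 (standard error 0.149) in the model group against control, and 0.07 without that rat. It was -0.26 (standard error 0.172, FDR 0.804 from edgeR), or -0.12 without that rat, in the HME group against model and -0.04 (standard error 0.128, FDR 0.886) against control.

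Acmsd (ENSRNOG00000003884) encodes the decarboxylase that takes ACMS away from quinolinate. It had 171, 235 and 106 counts in the control rats, 59, 73 and 121 in the model rats and 93, 47 and 83 in the HME rats, the fewest of the pathway. The 47 counts of HME replicate 2 have an exact 95% Poisson interval of 34.5 to 62.5, which covers counting error only. On the CPM scale the control rats were at 6.85, 14.0 and 7.06, the model rats at 2.53, 4.70 and 7.47 and the HME rats at 5.06, 2.54 and 4.29. The HME rats were all below the control rats, and the model rats overlapped both groups.

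In the model group Acmsd was -0.94 against control (standard error 0.427), from -1.38 without model replicate 3 to -0.52 without control replicate 2, with -0.63 without model replicate 1. The HME group lay at -1.23 against control (standard error 0.355, FDR 0.0799 from edgeR, 0.0078 from DESeq2) and -0.81 without control replicate 2. Against the model group it was -0.29 (standard error 0.42, 95% interval -1.25 to 0.676, FDR 0.913), with -0.61 without model replicate 1, and the sign turned to 0.16 without model replicate 3.

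The ratio of Qprt to Acmsd counts within a rat sets transcripts of the enzyme that uses quinolinate against those of the decarboxylase, and needs no scaling between libraries. It is a ratio of RNA and does not measure how ACMS divides between its fates. It does not compare the levels of the genes, whose lengths differ, but its change between rats is free of length. There were 14.4, 6.62 and 12.9 Qprt counts per Acmsd count in the control rats, 50.9, 20.7 and 13.8 in the model rats and 19.2, 29.6 and 23.8 in the HME rats. All HME rats were above all control rats, and model replicate 3 stood within the control range while model replicate 1 was the highest of all. On the log2 scale the ratio was 3.42 ± 0.604 in control, 4.61 ± 0.966 in model and 4.57 ± 0.314 in HME rats.

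The HME and model groups differed by -0.04 in this log2 ratio (exact two-sided permutation test, p = 1, n = 3 rats each). The difference moved between -0.45, without model replicate 3, and 0.50, without model replicate 1, so its sign rests on single rats. The HME and control groups differed by 1.15 (exact two-sided permutation test, p = 0.1, the smallest that 3 rats against 3 can give). The model and control groups differed by 1.19.

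**Figure D3:**
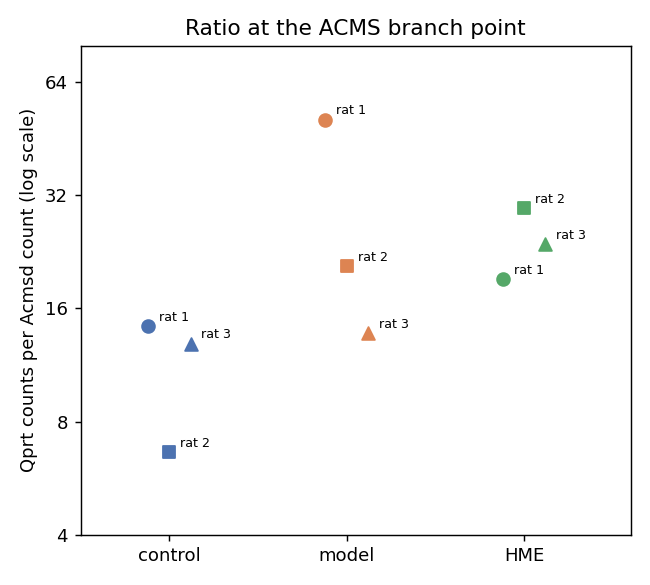
Qprt counts per Acmsd count (vertical axis, log scale) in each rat of the control, model and HME groups, with the replicate number beside each point. The HME rats, at 19.2 to 29.6, lie above the control rats, at 6.62 to 14.4, and the model rats spread from 13.8 to 50.9.

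Nampt (nicotinamide phosphoribosyltransferase, ENSRNOG00000009754) sets the pace of the salvage of NAD from nicotinamide. The control rats were at 147, 101 and 116 CPM, the model rats at 72.1, 47.5 and 48.0 CPM and the HME rats at 63.7, 79.5 and 50.3 CPM. All fructose-drinking rats were below all control rats, and the model and HME rats overlapped. The log2 fold change was -1.12 (standard error 0.217) in the model group against control, and -1.36 without model replicate 1.

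Nampt in the HME group was -0.92 against control (standard error 0.189, FDR 0.0268 from edgeR, 0.000245 from DESeq2), which missed 0.01 in the main test. With 1 rat left out it lay between -1.09 and -0.75. Against the model group it was 0.21 (standard error 0.225, 95% interval -0.304 to 0.728, FDR 0.874), with 0.44 without model replicate 1 and 0.03 without HME replicate 2.

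Nampt is a known output of the circadian clock, and several clock genes differed beside it. The clock list held 14 genes, among them Dbp, Tef and Hlf, which are outputs of the core loop, and 13 were tested. EdgeR called 3 of the 13 in the HME group against control, beside 1.48% of all genes, and 0 against model, beside 0.136%. DESeq2 values were taken for these 3 genes only. Against model, DESeq2 put Cry1 (log2 fold change -1.51, FDR 0.00117) and Npas2 (-1.32, FDR 0.00355) past the threshold, beside 1.18% of all genes. By edgeR their FDRs there were 0.141 and 0.202, and reached 0.485 and 0.618 with 1 rat left out. Per2, a repressor of the clock, was at 81.6 ± 7.22 CPM in control, 14.7 ± 2.24 in model and 14.8 ± 0.513 in HME rats, with a log2 fold change of -2.46 in the HME group against control (FDR 1.87e-05 from edgeR). Cry1, another repressor, fell by 2.63 (FDR 0.000289), and Npas2, an activator, rose by 2.59 (FDR 0.00373, 0.0185 without control replicate 1). Other clock genes went the other way. Nr1d1, also a repressor, had means of 5.41 CPM in control, 40.8 in model and 96.6 in HME rats. It rose by 4.12 in the HME group against control (FDR 0.0111 from edgeR), which missed the threshold. Arntl, an activator, was at -0.38 there (FDR 0.248). Of the 13 genes, 5 were at higher and 8 at lower values there. The part of the clock in the Nampt values was not tested.

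Counted over the set, 4 of 10 members did not overlap between the model and control groups (Kynu higher, and Afmid, Kmo and Nampt lower), beside 21.1% of all 12486 genes tested. The members were chosen with that comparison in view, so nothing is read from this count. The median log2 fold change was -0.32 over the members and -0.00107 over all genes. Between the HME and model groups 4 of 10 did not overlap (Ido2 and Kmo higher, Kynu and Haao lower), beside 14% of 12502 genes. Kynu was chosen on its level in these model rats, and its margin there was narrow, so its place in this count is a description only. For HME against control, 3 of the 9 members other than Kynu did not overlap (Afmid, Acmsd and Nampt, all lower), beside 30.2% of 12633 genes, a share near theirs. Kynu did not overlap there either, as its choice under fructose implies. The comparisons share groups of rats, so these counts are not independent of each other.

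In the HME group against model, edgeR called 0 of 10 members, beside 0.136% of all genes, and 0 at an FDR of 0.05, beside 0.456%. An unadjusted p under 0.05 was found for 3 of 10 members (Ido2, Kmo and Haao), beside 8.02% of all genes, and DESeq2 called 0, beside 1.18%. The median log2 fold change was -0.06 over the members and 0.000778 over all genes.

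Against control, edgeR called 0 of the 9 members tested, Kynu being left out, beside 1.48% of all genes. At an FDR of 0.05 it called 2 (Afmid and Nampt), beside 6.36%. An unadjusted p under 0.05 was found for 3 of 9 (Afmid, Acmsd and Nampt), beside 24.3%, and DESeq2 called these 3, beside 6.09%. The median over 10 members was -0.12 and that over all genes -0.00803. Library size alone in place of TMM called Afmid (FDR 0.00248), a scaling that moves the median of all genes to -0.144.

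**Figure D4:**
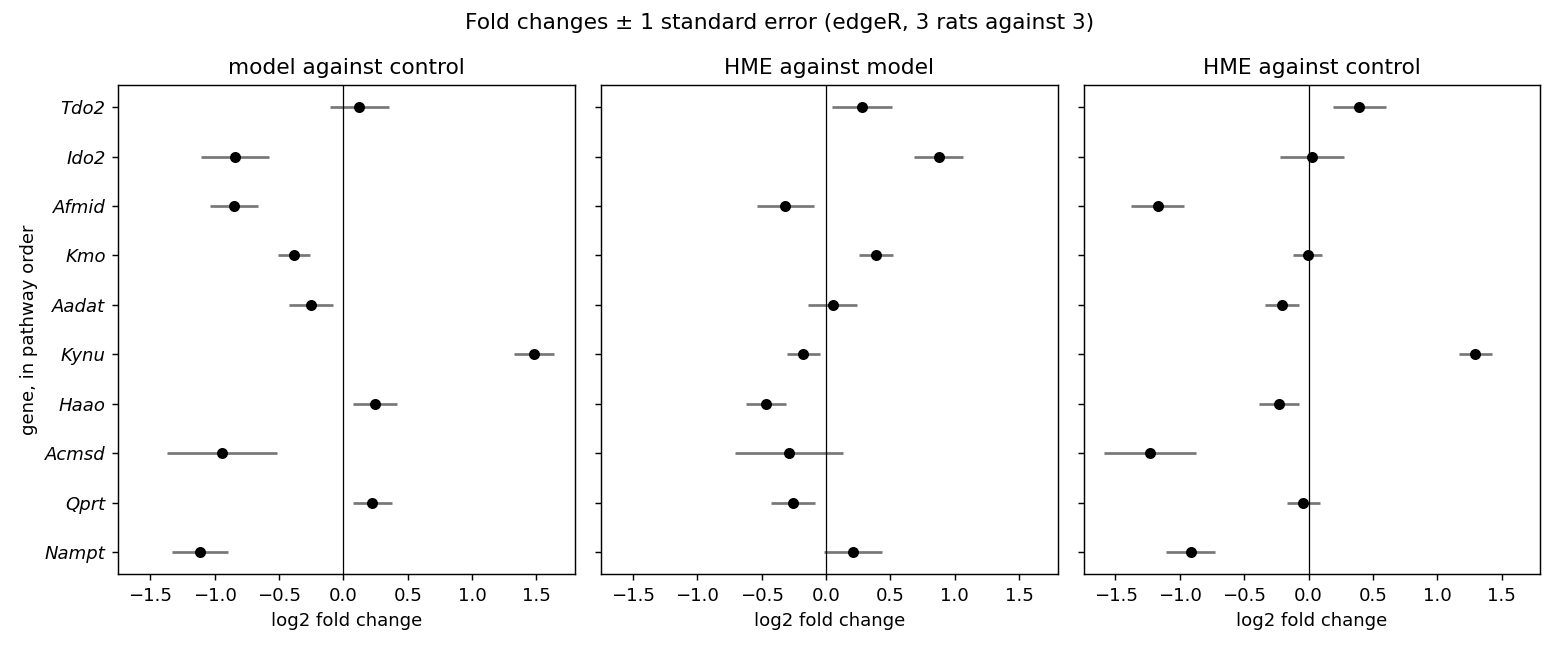
Log2 fold change (horizontal axes) of each gene in pathway order (vertical axis) for the model against control, HME against model and HME against control groups, with bars of 1 standard error. Kynu lies at 1.48 and 1.30 against control in the model and HME groups and at -0.18 between them, and Nampt at -1.12, 0.21 and -0.92 in panel order.

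Around these members, 46 further genes of tryptophan uptake, the side branches, NAD synthesis, NAD use and vitamin B6 were listed, of which 40 could be tested. Between the HME and model groups 0 were called by edgeR, beside 0.136% of all genes, 6 had an unadjusted p under 0.05, beside 8.02%, and DESeq2 called 1, Aox3, beside 1.18%. Against control 3 were called, Dhtkd1 upward and Pdxk and Pdxp downward, which is 3 of 40 beside 1.48% of all genes, and 17 had an unadjusted p under 0.05, beside 24.3%. The median log2 fold change of the 40 was -0.05 and -0.06 in these comparisons. In the model group against control 10 of 40 did not overlap, 3 higher and 7 lower, beside 21.1% of all genes. In the HME group against model 4 of the 40 were higher and 8 lower without overlap, beside 14%. Against control 7 were higher and 9 lower in the HME group without overlap, beside 30.2%.

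Vitamin B6 is the cofactor of kynureninase and of the kynurenine aminotransferases. Pdxk, the kinase that phosphorylates it, was at 24.97, 25.4 and 23.0 CPM in the control rats, 12.3, 16.5 and 18.0 in the model rats and 11.6, 11.6 and 10.2 in the HME rats. The groups did not overlap in any comparison, with the control rats highest and the HME rats lowest. The margin between the model and HME rats was narrow, at 12.3 against 11.6 CPM. Between those groups 14% of all genes did not overlap. In the HME group against control it fell by 1.14 (standard error 0.119, FDR 0.00123 from edgeR), and its FDR stayed between 0.0041 and 0.00697 with 1 rat left out. Against the model group it was -0.48 (standard error 0.185, FDR 0.571).

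Pdxp, the phosphatase that acts in the other direction, was low, with 15 to 135 counts. It was at 5.41, 5.56 and 7.93 CPM in the control rats, 3.30, 1.54 and 1.36 in the model rats and 1.20, 1.24 and 0.775 in the HME rats. The groups again kept this order without overlap, but model replicate 3 (1.36 CPM) and HME replicate 2 (1.24 CPM) lay close together at these low counts. In the HME group against control it fell by 2.55 (standard error 0.276, FDR 0.00155 from edgeR), and against the model group it was -0.96 (standard error 0.434, FDR 0.646).

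Dhtkd1 belongs to the breakdown of 2-oxoadipate, on the glutarate branch that ACMS can enter after decarboxylation. It was at 111, 141 and 130 CPM in the control rats, 267, 179 and 208 in the model rats and 227, 219 and 247 in the HME rats. Every fructose-drinking rat was above every control rat, and the model and HME rats overlapped. Dhtkd1 rose by 0.85 in the HME group against control (standard error 0.126, FDR 0.00631 from edgeR), although with any 1 rat left out the FDR was between 0.0122 and 0.0229, above the threshold.

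**Figure D5:**
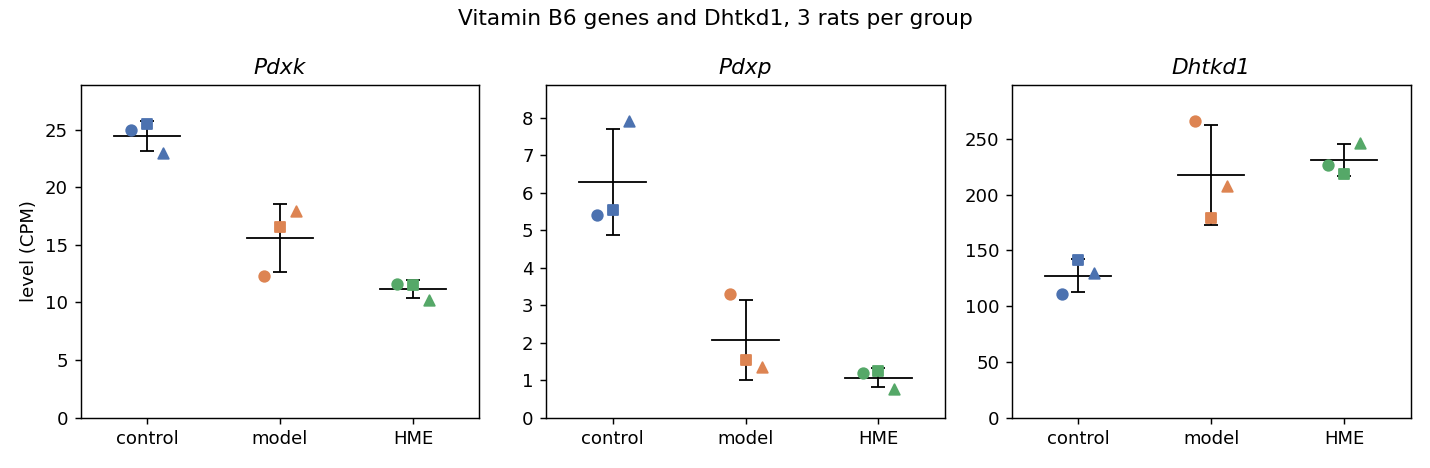
Level in CPM (vertical axes, from 0) of the vitamin B6 genes Pdxk and Pdxp and of Dhtkd1 in the control, model and HME groups. Circles, squares and triangles are replicates 1, 2 and 3, lines are means and bars SD over 3 rats. Pdxk and Pdxp are highest in the control rats and lowest in the HME rats, which lie below the model rats by a narrow margin. Dhtkd1 is lowest in the control rats.

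In each role without a called gene, the gene with the largest difference between the HME and model groups did not pass there by edgeR. Slc7a5, a subunit of an amino acid transporter that carries tryptophan, differed by -0.75 (standard error 0.339, FDR 0.649 from edgeR). Gcdh, the glutaryl-CoA dehydrogenase of the glutarate branch, shares its role with Dhtkd1 and had the largest difference in that role. It differed by 0.45 (standard error 0.159, FDR 0.519), with all HME rats above all model rats. Nmnat3, a mitochondrial enzyme that adenylates nicotinamide mononucleotide, differed by -0.88 (standard error 0.274, FDR 0.415), and Nadk, which phosphorylates NAD to NADP, by -0.24 (standard error 0.12, FDR 0.692), each with all HME rats below all model rats.

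Aox3, an aldehyde oxidase of the family that oxidizes nicotinamide derivatives, was at 233, 175 and 197 CPM in the control rats, 63.4, 54.0 and 92.7 in the model rats and 132, 158 and 151 in the HME rats. The groups did not overlap, and the HME rats lay between the model and control rats. Against the model group it differed by 1.08 (standard error 0.211, FDR 0.1 from edgeR, 0.00052 from DESeq2), and its FDR went down to 0.0491 and up to 0.355 with 1 rat left out. Aldehyde oxidases are close copies of each other, so reads can be shared between Aox1 and Aox3.

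Of the list of PPAR alpha targets, a fasting-induced set known to bear on Acmsd and Qprt, 10 of 11 genes were tested. In the model group against control 9 of the 10 were at higher values and 1 at a lower one, with a median of 0.62. Against control 1 of the 10 was called in the HME group, beside 1.48% of all genes. It was Cpt1a, the carnitine transferase of fatty acid oxidation, at 105 ± 5.84 CPM in control, 126 ± 23.6 in model and 309 ± 24.5 in HME rats (log2 fold change 1.55, FDR 0.000271 from edgeR). Against the model group edgeR called 0, beside 0.136% of all genes, with Cpt1a at 1.30 (FDR 0.0273, 1.51e-08 from DESeq2). There 7 of the 10 targets were at lower values and 3 at higher ones, with a median of -0.15, and Angptl4, an inhibitor of lipoprotein lipase, stood at -2.05 (FDR 0.0496 from edgeR), with no overlap. The summed level of the list was 2290 to 3160 CPM in the control rats, 3490 to 4790 in the model rats and 3710 to 4170 in the HME rats. Its part in the Acmsd and Qprt values was not tested.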

How the data were processed

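Liver RNA of 9 rats was sequenced from poly(A)-enriched libraries. Per the paper's methods and the submitters' processing notes, the authors used HISAT2 2.0.5 for alignment to Rnor_6.0 and HTSeq 0.6.1 for unstranded counting over exons. They deposited raw counts per gene, without normalization. A second deposited table of assembled transcripts was not used, since its unit is not stated.

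The main test was the two-sided quasi-likelihood test (glmQLFTest, robust) of edgeR 4.0.16 in R 4.3.3, after filterByExpr and TMM, fitted to the pair of groups compared, with Benjamini-Hochberg adjustment (FDR) over all genes tested. Standard errors were derived from the test statistic. CPM use TMM factors over 9 libraries. The sample titles give a group and a number, and each library was taken as a single rat. The paper's groups were larger, and it does not say how the sequenced livers were chosen or whether any were pooled. The tests judge differences against the spread between these libraries. Genes sharing reads on opposite strands cannot be told apart.

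Alternatives were DESeq2 1.42.0 and its size factors within edgeR, no TMM factors, an unfiltered table, a minimum of 10 counts per library, a joint fit of the 9 libraries, a replicate block, an FDR of 0.05, a pseudocount of 1 in place of 0.5 for the count ratio, and each rat left out.

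The members and lists were chosen with earlier results of these data known. The text names all members, wider genes called in a comparison with the HME group or largest in each role against the model group, context genes called there (at most 4 a list), and the 5 genes closest to Kynu. Gcdh, Angptl4, Pck1, Tat, Tsc22d3, Nr1d1 and Arntl were added after their values were seen. A listed gene is not reported here. Ido1, Sirt1, Nmnat2, Nmrk2, Nr3c1, Pecam1, Cd79a, Itgam and Hba1 were not analysed here. The reference sequences at hand are those of the mouse, so no sequence or coordinate is given.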

Additional observations from a re-analysis of the deposited data

How the results depend on the processing

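Of 390 recomputed fold changes of the members, 370 kept their direction and their side of the threshold, or moved by less than the spread between rats. The called members, 0 in the main test of the HME and control groups, became 1 (Afmid) with library size alone, 1 (Afmid) with no filter on low counts, 3 with DESeq2, 2 at an FDR of 0.05, and between 0 and 1 with 1 rat left out (Afmid without HME replicate 3, FDR 0.00577). The wider genes called there, 3 in the main test, became 5 with DESeq2, 5 at an FDR of 0.05, 4 with no filter on low counts, 2 in the joint fit of 9 libraries and 2 with any 1 rat left out, and those against the model group went from 0 to 1 with DESeq2. The sign turned for some fold changes. With 1 rat left out, Aadat in the HME group against model ranged from -0.0901 to 0.196, negative without model replicate 2 or HME replicate 1, and Acmsd from -0.611 to 0.159, positive without model replicate 3. In the HME group against control, Ido2 was -0.0928 with library size alone and between -0.221 and 0.204 with 1 rat left out, Kmo was 0.00111 with DESeq2 size factors, 0.00125 with DESeq2 and between -0.0633 and 0.0537 with 1 rat left out, and Qprt lay between -0.113 and 0.0861. Over all genes, 17 were called between the HME and model groups and 187 between the HME and control groups, against 147 and 769 with DESeq2, 38 and 489 with no filter on low counts, 11 and 238 with library size alone, and 2 to 12 and 86 to 132 with 1 rat left out. The causes were not tested.

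With the replicate block the members called stayed at 0 in both comparisons with the HME group, the wider genes called against control went from 3 to 2 (Pdxk and Pdxp), and all calls from 17 to 7 and from 187 to 104. Kynu was then 1.49 in the model group against control, and the ratio of Qprt to Acmsd differed by -0.04. Samples of equal number deviated from their group means with correlations across genes between -0.258 and -0.0126, so the number does not pair the rats and the block was not used. Depth limits the values of Acmsd, with 47 to 235 counts, and Pdxp, with 15 to 135 counts.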
